A study of Drosophila melanogaster with 3 samples.

Results

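The peaks described here are places where the tagged Row protein was enriched just upstream of a promoter that faces 1 way. A peak was kept when its summit lay within 500 bp of a protein-coding transcription start site (TSS), when every such TSS within 500 bp lay on 1 strand, and when the summit was upstream of the nearest TSS or on it. Of the 10483 peaks in the conservative list of the series, 2558 (24.4%) met the rule. They are called the one-strand upstream peaks. Their nearest TSSs belonged to 2214 protein-coding genes. The rule uses positions and no measured level. The data came from ChIP-seq, in which chromatin is immunoprecipitated and sequenced, on whole Drosophila melanogaster embryos of 0 to 24 h from a single group of 3 biological replicates. The embryos were of the strain row-GFP, whose transgene makes a Row protein with an eGFP tag, and the antibody was raised against GFP. The labels describe an insertion targeting row and do not say whether untagged Row was also present. Each replicate was a separate biosample, and chromatin was sheared by sonication to 200 to 800 bp. Whole embryos of all these ages mix many cell types, so a peak may come from some of them. No untagged or input sample was analysed here, and read depth is unknown.

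The zinc-finger protein Row, named as a relative of WOC, is known to act in a complex with WOC and the heterochromatin protein HP1c at active euchromatin. Fly genes often stand head to head and share an upstream region. At a one-strand promoter the upstream region serves, as far as protein-coding genes are concerned, transcription in a single direction. Promoters of fly housekeeping genes often carry the DNA replication-related element (DRE), which DREF and BEAF-32 bind, or motif 1, which M1BP binds. Promoters of many regulated genes carry a TATA box or an initiator in place of these.

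The following stretches of assembly dm6, read from the RefSeq genome on the strand of the gene, show what lies at the summits. Each is 121 bases long with the summit at its centre. The first group holds, for the chromosomes shown, the strongest peaks with the DRE word TATCGATA or the motif 1 core GGTCACAC (GTGTGACC on the other strand) within the stretch, and capitals mark these words.
CG14971 (chr3L:3471304-3471424, minus strand, summit 55 bp upstream of the TSS): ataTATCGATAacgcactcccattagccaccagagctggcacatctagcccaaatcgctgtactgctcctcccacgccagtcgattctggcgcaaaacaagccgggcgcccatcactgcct
l(3)73Ah (chr3L:16588240-16588360, plus strand, summit 175 bp upstream): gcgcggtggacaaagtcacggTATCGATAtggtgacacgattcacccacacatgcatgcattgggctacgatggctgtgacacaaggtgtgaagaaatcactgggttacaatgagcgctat
Rnp4F (chrX:5322711-5322831, minus strand, summit 75 bp upstream): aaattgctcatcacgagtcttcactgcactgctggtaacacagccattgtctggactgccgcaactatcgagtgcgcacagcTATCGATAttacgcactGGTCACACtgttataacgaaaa
Sumo (chr2L:6967634-6967754, minus strand, summit 50 bp upstream): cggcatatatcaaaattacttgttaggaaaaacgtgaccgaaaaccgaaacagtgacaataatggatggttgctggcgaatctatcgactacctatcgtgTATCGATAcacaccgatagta
Ube4B (chr2L:13019165-13019285, minus strand, summit 78 bp upstream): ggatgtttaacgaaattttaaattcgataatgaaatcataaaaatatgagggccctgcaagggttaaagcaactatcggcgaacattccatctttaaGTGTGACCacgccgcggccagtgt
CG42271 (chrX:14234179-14234299, minus strand, summit 173 bp upstream): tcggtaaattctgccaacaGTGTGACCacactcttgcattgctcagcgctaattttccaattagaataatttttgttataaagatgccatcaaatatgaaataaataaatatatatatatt
UQCR-C2 (chr3L:16584186-16584306, plus strand, summit 27 bp upstream): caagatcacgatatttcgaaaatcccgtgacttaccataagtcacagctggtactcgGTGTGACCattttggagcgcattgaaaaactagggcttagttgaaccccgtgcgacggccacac
Rnp4F, which encodes a splicing factor, holds both words on the gene side of its summit, whereas at CG14971 and l(3)73Ah the DRE word lies on the upstream side. In Ube4B, a ubiquitin ligase gene, CG42271 and UQCR-C2, a gene of respiratory complex III, the motif 1 core reads on the strand opposite to the gene.

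The second group holds, for the chromosomes shown, the strongest one-strand upstream peaks that have neither word, nor the shorter DRE form ATCGATA, in the stretch, and capitals mark runs of at least 8 A or T.
CG14100 (chr3L:19590555-19590675, minus strand, summit 91 bp upstream): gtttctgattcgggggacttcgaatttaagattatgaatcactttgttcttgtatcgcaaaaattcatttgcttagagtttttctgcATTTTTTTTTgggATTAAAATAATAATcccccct
CG18549 (chr3R:12449106-12449226, plus strand, summit 130 bp upstream): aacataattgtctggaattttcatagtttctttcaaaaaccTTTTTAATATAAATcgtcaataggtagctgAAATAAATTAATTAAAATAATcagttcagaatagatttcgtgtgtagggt
ph-p (chrX:2137264-2137384, minus strand, summit 469 bp upstream): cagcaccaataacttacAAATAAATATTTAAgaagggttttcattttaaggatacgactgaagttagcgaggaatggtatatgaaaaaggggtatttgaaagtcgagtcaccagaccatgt
These 3 peaks ranked 7, 8 and 10 of the whole list, while the peaks of the first group ranked from 388 at Ube4B to 1114 at UQCR-C2. The ranks describe these chosen examples only. Stronger peaks also held the DRE word when it was sought within 100 bp of the summit. Jwa, at rank 168, and CG11151, at rank 250, are examples. A and T made up 67.8%, 74.4% and 64.5% of the stretches at CG14100, CG18549 and ph-p.

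Most summits stood close to the gene. The median summit lay 142 bp upstream of the TSS, with quartiles of 74 and 256 bp, and 64.3% of the peaks lay within 200 bp. The same rule applied to each replicate's own thresholded list gave 2936, 2115 and 2160 peaks in replicates 1, 2 and 3, or 26.6% ± 1.85 of the list (SD, n = 3). Median distances in the same order of replicates were 121, 150 and 131.5 bp. Replicate 1 had the longest list and the nearest median. The most frequent distance class was centred 87 bp upstream in the series list and in replicate 2, and 62 bp upstream in replicates 1 and 3.

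**Figure D1:**
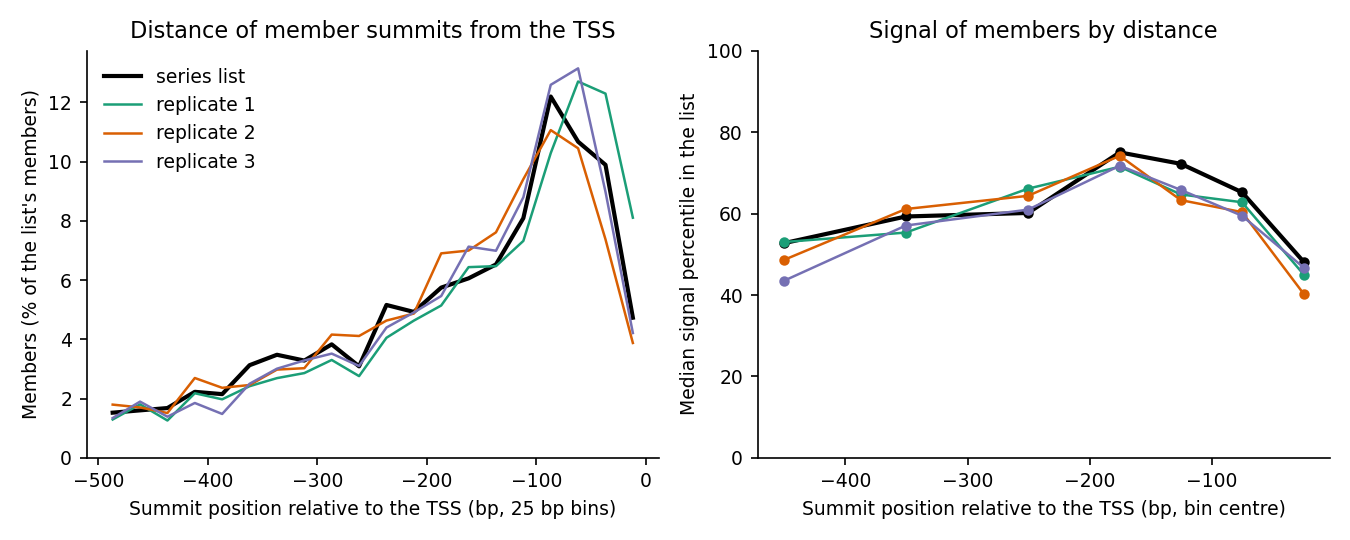
Left, share of each list's one-strand upstream peaks (%, in bins of 25 bp) against summit position relative to the TSS (bp). Right, median signal percentile of the peaks within their own list against distance (bin centre, bp). Lines are the series list and the lists of replicates 1 to 3. In every list the share was highest at 62 or 87 bp, and the signal was highest at 151 to 200 bp.

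The signal value of a peak is the authors' own value and is used here within a list only. In the series list these values match those of a pooled list, whose make-up the sources do not state. The one-strand upstream peaks ran from a signal of 2.25 to 9842, with a median of 380, which is the 61.7th percentile of the list. They made up 43 of the 100 strongest peaks and 361 of the 1000 strongest, against 24.4% of the whole list. Signal changed with distance. In the replicates' own lists the median percentile was 44.01 ± 3.35 at 0 to 50 bp, 60.9 ± 1.71 at 51 to 100 bp, 64.6 ± 1.25 at 101 to 150 bp and 72.5 ± 1.48 at 151 to 200 bp (SD, n = 3). Beyond that it was 63.8 ± 2.62 at 201 to 300 bp, 57.8 ± 2.97 at 301 to 400 bp and 48.3 ± 4.78 at 401 to 500 bp. The nearest and the farthest classes were thus the weakest in all 3 replicates.

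Where a replicate peak overlapped a series peak, its summit mostly stood close to the series summit. Of the 2558 peaks, 2374 overlapped a thresholded peak of replicate 1 by at least 1 bp, 2102 one of replicate 2 and 2080 one of replicate 3. Among these overlapping peaks, the nearest replicate summit lay a median of 10 bp away in replicate 1 and 12 bp away in replicates 2 and 3. It was within 50 bp in 89.3%, 87.3% and 87.9% of cases in replicates 1, 2 and 3. Taking the nearest summit favours short distances. In all 3 replicates, 1869 peaks (73.1%) were listed, against a background of 62.1% for the whole list. A further 344 were listed in 2 replicates, 261 in 1 and 84 in none. The intervals behind the series list matched peaks of replicates 1 and 2 in 99.4% and 99.6% of cases. Listing and summit distances there are thus not independent of the choice of peaks. Listing in all 3 rose with signal, with 20.9% in the weakest quintile of the one-strand upstream peaks, 55.6%, 90.2% and 98.6% in the next ones and 100% in the strongest. The series signal is not independent of the replicates' signals. This rise is therefore partly built in and is no test of repetition. The 84 peaks listed in no replicate had signals of at most 208.

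The strongest 20 peaks show the range of genes involved. All of them were listed in the 3 replicates, ranked no lower than 101 in any replicate, and had a replicate summit within 30 bp of the series summit each time. Their summits lay 37 to 469 bp from the TSS, with a median of 150 bp. Of the 20, 14 were nearest to the most 5′ TSS of their gene. A single one, at the translation factor gene eIF6, held a DRE word, none held the motif 1 core, and 10 held TATAAA. Over all one-strand upstream peaks these words were in 9.03%, 5.94% and 36.7%, and 20 peaks are too few to tell a difference. GC content within 100 bp of their summits ran from 23.4% to 49.8%.

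First came mRpL41, which encodes a protein of the large mitochondrial ribosomal subunit, at 2R, 15217517 to 15218204 (dm6), with a signal of 9842. Its ranks in replicates 1, 2 and 3 were 3, 1 and 2, and its summit lay 148, 127 and 147 bp upstream of the TSS in those lists. This summit lay 4124 bp from the gene row. The gene row itself had a pair of one-strand upstream summits in the interval 15213474 to 15214121 on the same arm, 92 bp and 292 bp upstream of its TSS, with signals of 3931 and 2591. Replicate 1 had separate summits 78 and 292 bp upstream. In replicates 2 and 3 both were matched to the same peak, with its summit 132 and 90 bp upstream. Within 20 kb of row there were 6 peaks of the series list, 3 of them one-strand upstream peaks. The labels describe an insertion that targets row, and whether extra copies of this region contribute to these signals was not tested.

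Sox14, whose HMG-box product acts in the ecdysone response, had a signal of 9134. Its summits were 244, 242 and 244 bp upstream in replicates 1, 2 and 3, where it ranked 2, 3 and 3. The Polycomb-group gene ph-p, a subunit gene of the complex PRC1, had a signal of 6485 at an internal TSS. Its replicate summits lay 473, 483 and 489 bp upstream, near the 500 bp limit of the rule. Its neighbour and paralogue ph-d had a weaker peak, with a signal of 311 and a summit 339 bp upstream. The strongest 20 also held elav and msi, which encode neuronal RNA-binding proteins, with signals of 4820 and 4574. Their summits lay 264 and 233 bp upstream in the series list. In elav the replicate summits were 262, 264 and 264 bp upstream, and in msi 233, 256 and 232 bp. px and gish, which encode a wing vein patterning protein and a casein kinase, had peaks at internal TSSs with signals of 6511 and 5386.

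At the limits of the rule, the 3 farthest peaks had summits exactly 500 bp upstream, at lola, CG17896 and Pkcdelta, with signals of 418, 2840 and 143. The next summits beyond lay 501 bp from CG14419 and 503 bp from pbl and stv, with signals of 15.6, 228 and 324. Peaks inside and outside the limit thus had overlapping signals. At the other end, 6 series summits lay on the TSS itself, at CG12081, CG13585, Hsp110, TTLL4B, PIG-H and Ppa, with signals from 9.46 to 410. At CG12081 the replicate summits lay 5 and 25 bp upstream and 7 bp downstream. CG13585 was listed in replicates 1 and 2, with summits 0 and 6 bp downstream. Hsp110 was listed in no replicate. TTLL4B and PIG-H were listed in replicate 1 alone, with summits 55 bp downstream and 59 bp upstream. At Ppa the replicate summits lay 201, 203 and 235 bp downstream. The weakest peaks of all were those of SLIRP1, CG43996 and CG15343, with signals from 2.25 to 3.09. The replicate peaks that overlapped them had summits 398, 190 and 190 bp upstream at SLIRP1, 621, 616 and 616 bp at CG43996 and 132, 144 and 120 bp at CG15343. The series summits lay 391, 414 and 334 bp upstream in these genes, so replicate 1 at SLIRP1 was the only close match.

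Signals under 20 were found in 42 one-strand upstream peaks, and 38 of them had a stronger summit within 250 bp. Of all 2558, 181 had such a neighbour. Among the remaining 2377 the median signal was 413, and 73.1% were listed in all 3 replicates. Some promoters carried a pair of summits. Of the 2395 distinct TSSs, 163 had 2 one-strand upstream summits, spaced 199 to 312 bp apart with a median of 204 bp, and in 64 cases both were in an identical interval.

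Of the 2214 genes, 296 had more than 1 one-strand upstream peak. SNF4Agamma, which encodes the gamma subunit of the energy sensor AMPK, had 7, and dnc, which encodes a cAMP phosphodiesterase needed for learning, had 6. mtd and Rtnl1, which encode an oxidation-resistance protein and a reticulon of the endoplasmic reticulum, had 5 each. In dnc the signals were 2439, 975, 549, 510, 164 and 125, all at internal TSSs, and each peak overlapped a thresholded peak in the 3 replicates. The peaks with signals of 549 and 125 were matched to the same peak in replicates 2 and 3. Its summit lay 368 and 355 bp upstream there, so replicate 1 alone separated these peaks. In Rtnl1 they were 3351, 2147, 961, 551 and 259, and the weakest stood at the most 5′ TSS. In SNF4Agamma the signals were lower, from 117 to 760, and 4 of the 7 were listed in all 3 replicates. Of these, the peaks with signals of 291 and 231 were matched to the same peak in replicates 2 and 3.

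Over all one-strand upstream peaks, 669 (26.2%) were nearest to an internal TSS of their gene and 1889 (73.8%) to its most 5′ TSS. The background, over all one-strand TSSs counted by gene and position, was 67.6% at the most 5′ TSS. The summit lay inside the span of its own gene in 673 peaks (26.3%), inside another protein-coding gene in 255 (9.97%) and outside any protein-coding gene in 1695 (66.3%). These shares by gene span have no background here and follow in part from the annotation. Summits nearest to an internal TSS lay farther from it. Any TSS other than the most 5′ one counts as internal here. Some, as at PNPase, had another TSS of the gene within 500 bp of the summit, so they need not be separate promoters. In the replicates' lists the median summit was 203 ± 18.7 bp upstream at internal TSSs and 114 ± 13.3 bp at most 5′ TSSs (SD, n = 3). The distance was greater at internal TSSs in 3 of 3 replicates. Signal percentiles were 60.4 ± 3.73 and 58.7 ± 0.351, a difference of 1.67 ± 4.01 that changed sign between replicates (exact permutation p = 0.75).

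Differences from other promoter classes, between internal and most 5′ TSSs, between near and far summits, and between TSSs with and without a peak were tested with a two-sided exact permutation of signs over the 3 replicate lists. Shares by gene list or chromosome, and those restricted to summits at 0 to 100 bp, were not tested. With 3 pairs the smallest p it can give is 0.25, so no difference could pass 0.05. In all, 33 differences were tested. For the 14 comparisons with other promoter classes the Benjamini-Hochberg adjusted p was 0.269 for 13 and 0.75 for the last. The size of a difference, its SD and the number of replicates that share its direction are therefore given.

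The DRE word TATCGATA was sought on both strands within 100 bp of each summit, and 231 one-strand upstream peaks (9.03%) held it, against a background of 5.08% for the whole list and 0.489% in windows 1000 bp away. The shorter form ATCGATA, which every DRE word also contains, was in 17.8% of these peaks, with a background of 10.2% and 2.81% in the windows 1000 bp away. The motif 1 core GGTCACAC was in 152 peaks (5.94%), with a background of 3.05% and 0.625% farther out. Both words were present in 16 peaks. The larger number, 1990 peaks (77.8%), held neither the shorter DRE form nor the motif 1 core. A match of letters is a description of the sequence and not a binding site.

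Both words were more frequent where the summit stood close to the gene. In the replicates' lists the DRE word was within 100 bp of the summit in 21.4% ± 1.09 of peaks at 0 to 50 bp, 15.1% ± 1.47 at 51 to 100 bp, 9.05% ± 2.47 at 101 to 150 bp and 2.93% ± 0.678 at 151 to 200 bp (SD, n = 3). It stayed between 1.58% and 2.43% in the classes farther out. The motif 1 core followed with 14.9% ± 2.41, 12% ± 1.22, 4.13% ± 0.278 and 2.24% ± 0.498 in the same classes. Peaks at 0 to 100 bp exceeded peaks at 201 to 500 bp by 15.6 ± 0.279 percentage points for DRE and 12.4 ± 0.979 for motif 1, in 3 of 3 replicates each. In the series list the motif 1 difference was 12.5 points and fell to 4.92 with windows of 50 bp. A window around a far summit does not reach the TSS, so the words were also sought from 250 bp upstream to 50 bp downstream of the nearest TSS, whatever the place of the summit. There the DRE word was in 19.2% ± 0.532 of peaks at 0 to 100 bp and 2.42% ± 0.807 of peaks at 201 to 500 bp, and the motif 1 core in 15.5% ± 0.985 and 3.10% ± 0.423 (SD, n = 3, higher in the near class in 3 of 3 replicates for both). The signal had its maximum at 151 to 200 bp, where both words were already rare. GAGAG, the word of GAGA factor, ran the other way, with a difference of −7.51 ± 0.472 points in the near class (lower in 3 of 3 replicates).

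**Figure D2:**
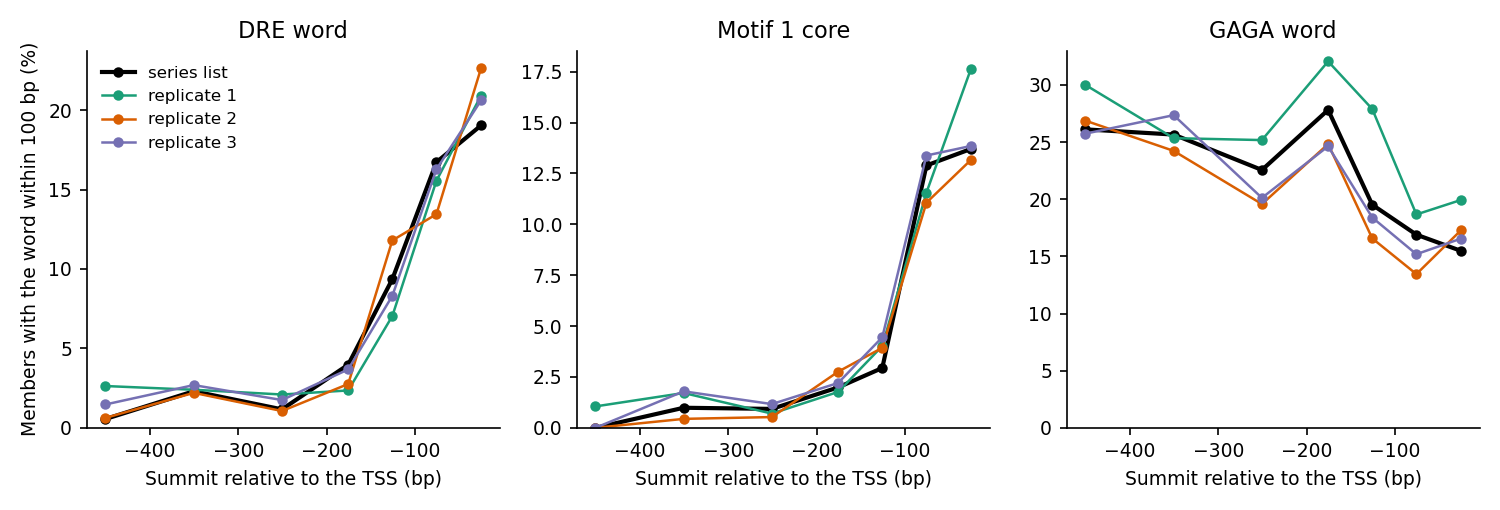
Share of one-strand upstream peaks with the DRE word, the motif 1 core and the GAGA word within 100 bp of the summit (%), against summit position relative to the TSS (bin centre, bp). Lines are the series list and replicates 1 to 3. The DRE share in the series list was 19.04% at 0 to 50 bp and 0.556% at 401 to 500 bp.

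The DRE word and the motif 1 core differed in their place relative to the TSS. In peaks with a DRE word, its centre lay a median of 44 bp upstream of the TSS, with quartiles of 74 and 18 bp, and 64.9% of these words stood on the gene side of the summit. The motif 1 core was nearer to the start, at a median of 5 bp upstream of the TSS, with quartiles of −50.5 and 10.25 bp and 44.1% downstream of it, and 84.9% stood on the gene side. It had a preferred direction, with 115 of 152 cores (75.7%) reading GGTCACAC on the strand of the gene. GAGAG showed no such preference, at 46.0% on the gene strand, and its median position was −159 bp, with quartiles of −280 and −76 bp. This was near the position of the summits, with a median of −142 bp and quartiles of −256 and −74 bp. Words were sought only within 100 bp of a summit, so their positions are bound to those of the summits.

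The share of peaks with these words was lowest among the strongest peaks. Over the quintiles of the one-strand upstream peaks from weakest to strongest, the DRE share in the series list was 8.203%, 11.9%, 11.9%, 8.81% and 4.30%. The motif 1 share was 6.05%, 9.002%, 5.86%, 5.48% and 3.32%. In the strongest quintile of replicates 1, 2 and 3 the DRE share was 4.09%, 3.07% and 4.17%, the lowest quintile value in each. Distance varied over the same quintiles, with median summit positions of −168, −120, −119.5, −125 and −171.5 bp in the series list, and its part in the result was not tested. At internal TSSs the DRE word was in 2.94% ± 0.561 of peaks, against 11.4% ± 0.861 at most 5′ TSSs (SD, n = 3, lower in 3 of 3 replicates). The distances of these groups differ, so the share was also taken over summits at 0 to 100 bp. There it was 8.65% ± 1.66 at internal TSSs and 19.2% ± 0.991 at most 5′ TSSs. For the motif 1 core the same restriction gave 11.95% ± 2.74 and 13.5% ± 1.60, and replicate 3 was higher at internal TSSs.

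Other words were less specific to these peaks. GAGAG was in 21.0% of them, with a background of 19.7%, and TATAAA in 36.7%, with a background of 37.9%. The windows 1000 bp away held 21.95% and 20.9%. The motif 6 core GTATTTTT was in 6.53% (background 5.26%, farther out 2.42%) and the motif 7 core CAGCGCT in 2.03% (background 1.36%). The E-box CAGCTG was in 10.1% (background 7.77%, farther out 9.87%) and CACACACA in 2.27% (background 3.18%).

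The summits were rich in A and T. Median GC content within 100 bp was 35.3%, with quartiles of 31.3% and 40.3%, against 43.3% in windows 1000 bp away and 34.3% for the whole list. Of the 20 words of 7 letters whose share most exceeded that in the windows 1000 bp away, 19 were made of A and T alone, and the other was ATCGATA. These words were chosen after their values were seen. The first was AAAATAT, in 30.02% of peaks and 12.5% of the distant windows. Along the strand of the gene the composition was lopsided. GC was lowest, at 31.5%, in the bin centred 50 bp on the upstream side of the summit. It averaged 46.6% at 300 to 500 bp on the gene side and 38.6% at the same distance on the upstream side.

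**Figure D3:**
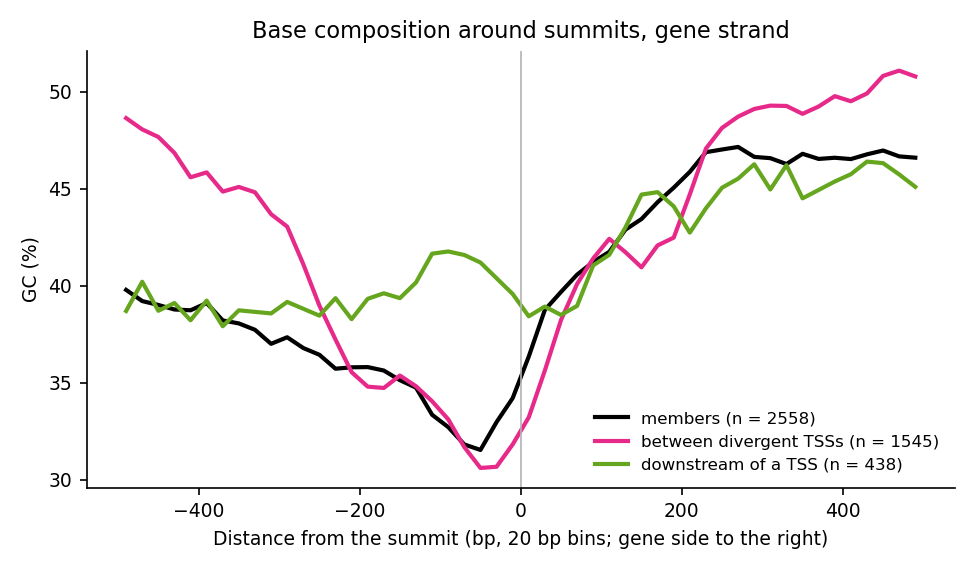
GC content (%) in bins of 20 bp against distance from the summit (bp), read along the strand of the nearest gene with the gene side to the right, in the series list. Lines are the one-strand upstream peaks (n = 2558), peaks between divergent TSSs (n = 1545) and peaks downstream of a TSS (n = 438). The one-strand upstream peaks had their lowest value, 31.5%, 50 bp upstream of the summit.

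The one-strand upstream peaks were set against the other promoter peaks, which are 1545 peaks with protein-coding TSSs on both strands within 500 bp (divergent peaks) and 438 peaks just downstream of a one-strand TSS. In the replicates' lists the median signal percentile was 59.3 ± 0.847 at one-strand upstream peaks, 68.3 ± 2.96 at divergent peaks and 40.8 ± 8.88 at downstream peaks (SD, n = 3). One-strand upstream peaks differed from divergent peaks by −8.99 ± 2.47 points and from downstream peaks by 18.6 ± 8.41, each in 3 of 3 replicates (exact permutation p = 0.25 for both). DRE words were in 9.21% ± 0.771, 13.9% ± 0.996 and 6.58% ± 1.04 of the peaks of these classes, in that order. The difference from divergent peaks was −4.67 ± 0.266 points and that from downstream peaks 2.63 ± 0.767, each with 1 direction in 3 of 3 replicates. Distance differed too, with median summit positions of −142 bp at one-strand upstream peaks and −79 bp at divergent peaks in the series list. The part of distance in the DRE difference was not tested. In the series list the DRE difference from divergent peaks, −5.53 points, ranged from −1.09 with windows of 50 bp to −9.36 with windows of 150 bp, and was −2.70 with a limit of 250 bp and −3.56 with the most 5′ TSS of each gene alone. The signal difference from downstream peaks, 22.8 points there, was 12.7 at an IDR of 0.001. Motif 1 cores were in 6.40% ± 1.18, 7.56% ± 1.40 and 4.71% ± 0.188. The series list difference from divergent peaks, −1.95 points, ranged from −0.448 to −5.90 over the same windows. The difference from downstream peaks, 1.69 ± 1.02 points in the replicates and 1.60 in the series list, turned to −0.0814 with windows of 50 bp and to −1.02 with the most 5′ TSS of each gene alone.

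GAGAG was less frequent at divergent peaks than in the other classes. It was in 21.03% ± 2.65 of one-strand upstream peaks and 13.6% ± 0.514 of divergent peaks, a difference of 7.46 ± 2.17 points (higher in 3 of 3 replicates). Against downstream peaks, at 20.1% ± 4.70, the sign changed between replicates (exact permutation p = 0.75). Peaks over 500 bp from a TSS held GAGAG in 21.2% ± 1.60, so the share of one-strand upstream peaks was not particular to them. Divergent summits stood nearer to the TSS, where GAGAG was also rarer in one-strand upstream peaks. The part of distance was not tested. TATAAA was in 36.4% ± 2.48 of one-strand upstream peaks, 40.5% ± 2.26 of divergent peaks and 28.0% ± 3.56 of downstream peaks. Median GC content was 35.2% ± 1.04, 34.0% ± 0.760 and 39.1% ± 2.30 in the 3 classes.

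**Figure D4:**
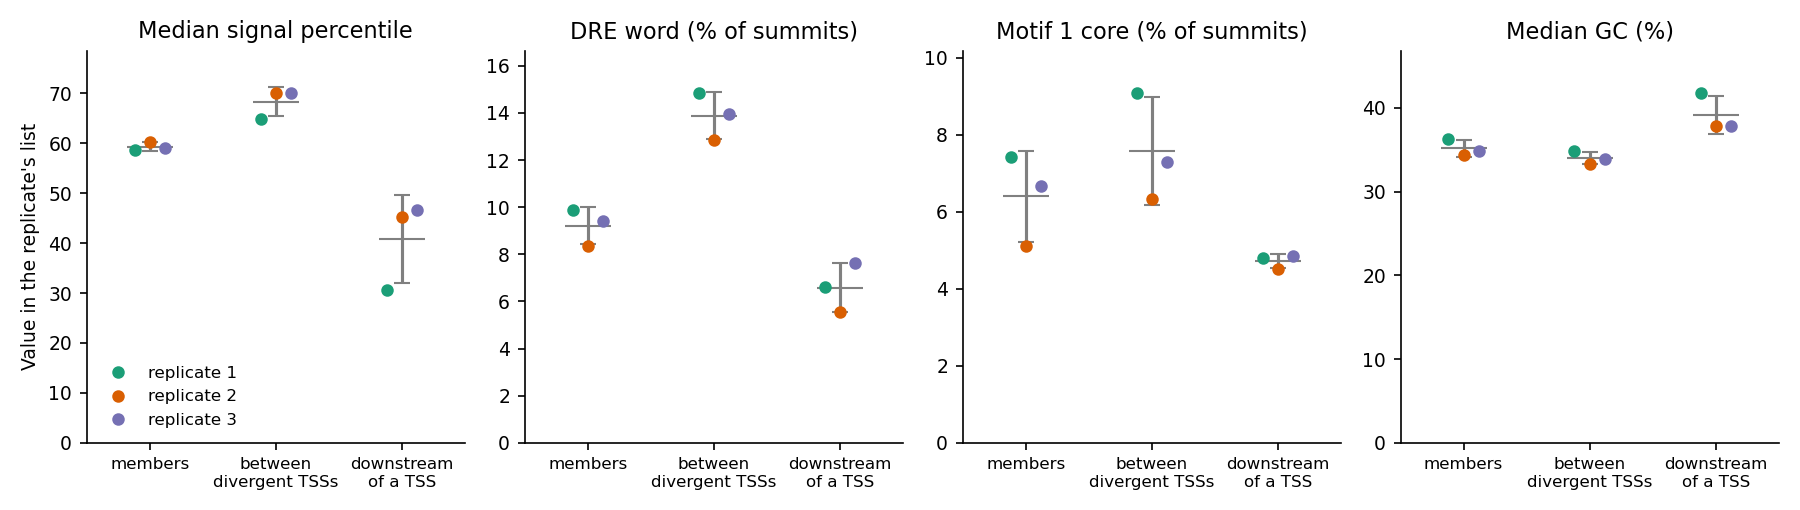
Median signal percentile within the list, share of summits with the DRE word (%), share with the motif 1 core (%) and median GC content within 100 bp (%), in one-strand upstream peaks (members), divergent peaks and downstream peaks. Points are replicates 1 to 3, and grey bars are mean ± SD (n = 3). The one-strand upstream peaks lay between the other classes in all 4 panels in each replicate.

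Promoters with a peak differed in sequence from those without. Of 14793 one-strand TSSs, 2387 were the nearest TSS of a one-strand upstream peak in the series list, and 11195 had no summit within 500 bp. In the window from 250 bp upstream to 50 bp downstream of the TSS, the DRE word was in 11.3% ± 0.852 of TSSs with a peak and 3.48% ± 0.538 of those without, over the replicates' lists (SD, n = 3). The background over all one-strand TSSs was 5.28%. The motif 1 core was in 9.44% ± 0.864 and 2.88% ± 0.422, with a background of 4.39%. TATAAA starting 40 to 20 bp upstream, where a TATA box stands, was in 3.34% ± 0.103 and 9.14% ± 0.358, with a background of 7.79%. The initiator words TCAGTT or TCAGTC, starting from 7 bp upstream to 3 bp downstream of the TSS, were in 9.83% ± 0.455 and 11.02% ± 0.0750, with a background of 10.5%. Each of these differences had 1 direction in 3 of 3 replicates.

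Read the other way, 262 of 781 one-strand TSSs with a DRE word (33.5%) had a one-strand upstream peak in the series list, and 219 of 649 with a motif 1 core (33.7%). With TATAAA at the place of a TATA box it was 81 of 1152 (7.03%), and with an initiator word 245 of 1552 (15.8%). Over all one-strand TSSs it was 16.1%.

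A non-coding TSS stood on the other strand within 500 bp of the summit in 192 one-strand upstream peaks (7.51%). The background, over all 2996 summits with protein-coding TSSs on 1 strand, was 7.31%. Most of these summits are the one-strand upstream peaks themselves, so the values had to be close. At the downstream peaks alone the share was 6.16%. In the replicates' lists the share was 6.99% ± 0.308 (SD, n = 3). Farther out, up to 1000 bp, 367 peaks (14.3%) had an opposite protein-coding TSS, so the one-strand label depends on the distance used.

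Of the 10761 genes with a one-strand TSS, 2208 had a one-strand upstream peak, a background of 20.5%, and 19.7% ± 3.19 had one in the replicates' own lists (SD, n = 3). The gene lists below were compared with that value as counts. Chromosome 4, the small and largely heterochromatic chromosome, stood highest with 36 of 73 genes (49.3%), and 51.6% ± 9.12 over the replicates. The X had 459 of 1750 (26.2%), with 24.3% ± 3.91 over the replicates. The major autosomal arms lay between 17.8% and 20.3%. The Y had none among 23 genes.

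Genes of protein synthesis were well represented. Of 56 one-strand genes for cytosolic ribosomal proteins, 33 (58.9%) had a peak, and 54.8% ± 4.12 in the replicates' lists (SD, n = 3). The strongest were at RpS3A, RpS4 and RpS23, with signals of 1196, 1065 and 971 and summits 109, 94 and 48 bp upstream. RpL10Aa had none. Their peaks were of middle strength, with a median signal of 431 for the strongest peak per gene. Of 40 translation factor genes, 15 (37.5%) had a peak, led by eIF6, which acts in assembly of the large ribosomal subunit (signal 5183), eIF3c (2089) and eIF5B (1715). Aminoacyl-tRNA synthetase genes had 7 of 15, among them beta-PheRS (1037). Mitochondrial ribosomal protein genes had 6 of 20 in the series list and 41.7% ± 2.89 in the replicates' lists. After mRpL41 their strongest peaks were at mRpL4 (1179) and mRpS29 (751).

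Genes of transcription and chromatin followed. Of 31 genes of the transcription machinery and Mediator, 15 (48.4%) had a peak, with 51.6% ± 11.6 over the replicates. MED21, a Mediator subunit gene, Taf4, a TFIID subunit gene, and Polr2F, a polymerase subunit gene, had signals of 1073, 1008 and 877. Splicing factor genes had 5 of 13, with tra2, the partner of transformer in sex-specific splicing, at 687. Among 14 Polycomb-group genes, 6 had a peak, and the share varied widely, from 64.3% in replicate 1 to 35.7% in replicates 2 and 3. After ph-p came pho, which encodes a DNA-binding Polycomb protein, at 536. Of 18 genes for insulator and core promoter factors, 7 had one. Among them BEAF-32, whose product binds DRE-like words, had a signal of 968 and a summit 58 bp upstream, and Clamp, which encodes a GA-binding factor of dosage compensation, had 604. Of 17 HP1 and heterochromatin genes, 3 had a peak (17.6%), a share near the background. They were row, wde (255) and Su(var)3-3 (129), and Su(var)3-3 was listed in a single replicate.

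Membrane traffic and signalling genes also stood above the background. Of 56 genes of the Rab, Arf and secretory pathway list, 23 (41.1%) had a peak, with 36.3% ± 5.74 over the replicates. TRAM and deltaCOP, which act in translocation into the endoplasmic reticulum and in coated vesicles, had signals of 3713 and 2570. Autophagy and endosomal sorting genes had 11 of 28, with Vps15 at 900. Of 60 genes of the Notch, EGFR, JAK-STAT, Dpp, Wnt and Hedgehog pathways, 28 (46.7%) had a peak. Their share in replicates 1, 2 and 3 was 53.3%, 35.0% and 38.3%. The strongest were sgg, the GSK3 kinase gene of the Wnt pathway (signal 3192), the EGFR ligand gene spi (1668) and nkd, a Wnt antagonist gene (1552). sgg also belongs to the circadian clock list, in which 6 of 16 genes had a peak, with vri, a repressor of Clk, at 1504.

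Several lists had shares under the background. None of 165 odorant, gustatory and ionotropic receptor genes had a one-strand upstream peak in the series list, and 1 had one in replicate 3. Of 119 cuticle protein genes, Cpr65Ea alone had one, with a signal of 249. Cytochrome P450 genes had 8 of 85 (9.41%), led by Cyp317a1 (869), Cyp4d1 (516) and Cyp12a5 (318). Hox and segmentation genes had 2 of 34, Dfd (487) and bcd (234). Ion channel and synapse genes had 10 of 104 (9.62%), counting elav, a neuronal marker gene on that list. Axon guidance genes were nearer to the background, at 15 of 60 (25%), led by chb (1657), PlexA (1525) and trio (1296).

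Other lists ranged from 14.3% to 37.5%. DNA replication and cell cycle genes had 16 of 45 (35.6%), nuclear pore and transport genes 6 of 16 (37.5%), proteasome subunits 7 of 26, oxidative phosphorylation subunits 13 of 53 and vacuolar ATPase subunits 6 of 24. Muscle and sarcomere genes had 11 of 44, with Msp300, which encodes a nesprin, at 1743. The insulin and TOR list had 7 of 30, among them REPTOR, a TORC1-regulated transcription factor gene (3285). The ecdysone list had 6 of 32 (18.8%), with EcR, the hormone receptor gene, at 355. The trithorax and SWI/SNF list had 3 of 14 in the series list and 50%, 21.4% and 35.7% in replicates 1, 2 and 3. The germline and piRNA list had 4 of 28 (14.3%), with papi at 2608.

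**Figure D5:**
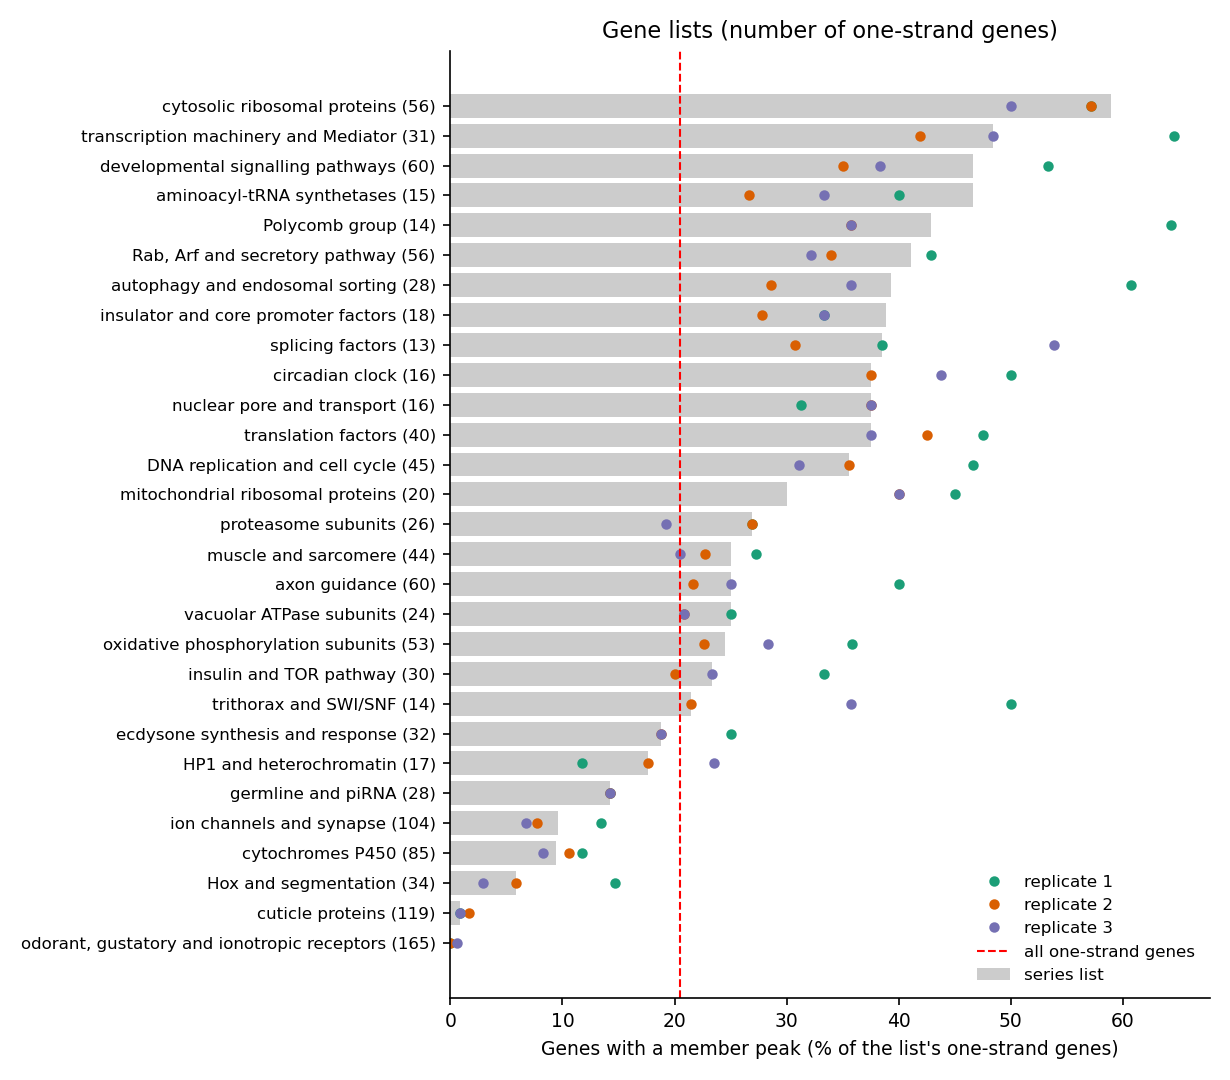
Share of each list's one-strand genes that had a one-strand upstream peak (%). Bars are the series list, points are replicates 1 to 3, and the dashed line is the share of all one-strand genes, 20.5%. The number of one-strand genes per list is in parentheses. Cytosolic ribosomal protein genes stood at 58.9%, and the receptor and cuticle lists at 0% and 0.840%.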

How the data were processed

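ChIP-seq peaks were analysed from 3 replicates of 1 group. The authors deposited peak lists on dm6, ranked and thresholded by irreproducible discovery rate (IDR), per replicate and for the series. Each peak has a signal value, a score that is the scaled IDR and, in the ranked lists, the −log10 of the global IDR, as deposited by the authors. The sources used here name no aligner, peak caller or normalization. Read depth is unknown, so values carry no counting error, and the p-values measure only the spread between the 3 replicates. The confidence interval on the share listed in all 3 replicates, 71.3% to 74.8% (exact Clopper-Pearson, 95%), treats the peaks as independent trials. They are not independent, because some share a TSS or a peak interval, or are matched to the same replicate peak. The confidence interval covers counting error under that assumption only, and no spread between replicates.

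Summits were assigned to TSSs of Ensembl release 115, and sequence was read from the RefSeq genome of the same assembly. Words were sought within 100 bp of the summit, and peaks overlapped by at least 1 bp. Signals were turned into percentiles within each list. Differences over replicates were tested by exact sign permutation. The genes named were the 20 strongest, up to 3 of each gene list with the first without a peak, those at distance 0 and those nearest to the limit of 500 bp; genes with several peaks, the weakest and row were added after their values were seen. The members and the 29 gene lists were chosen with earlier results of these data known. Calculations used Python 3.11.15, numpy 2.4.6, pandas 2.3.3, scipy 1.17.1 and matplotlib 3.10.9 and were tested on simulated data. Alternatives covered other peak lists, IDR limits, distances, TSS sets, windows and lists matched to other pairs of replicates.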

Additional observations from a re-analysis of the deposited data

Results flagged for a closer look

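The ranked list of the series held 174 peaks at an IDR of 0.01 or better that the thresholded list lacks, and 66 of them met the rule for one-strand upstream peaks. They are flagged as signal in data that the comparisons did not use. They were nearest to 56 genes and had a median signal of 312. The strongest were at larp (5156, summit 335 bp upstream), cbt (3004, 394 bp), CG4297 (1444, 257 bp), Nuak (1301, 126 bp) and Rel (1156, 114 bp). Why the thresholded list lacks them was not tested.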

How the results depend on the processing

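Of 99 values of 9 results under alternatives, 71 stayed within the limits set for each. The limit was a factor of 1.5 for the number of peaks and the interval given above for listing. For the other results it was the SD over the 3 replicates. These limits differ in width, and the one for listing assumes independent peaks, so the count of 71 is no single measure of stability. The number of one-strand upstream peaks ran from 1932 to 3101 and median GC from 34.7% to 35.8%. Of 112 values of 10 comparisons under alternatives that were chosen after seeing the data, 110 kept their sign. The GC difference from divergent peaks, 1.49 points, was 0.498 with a limit of 1000 bp, and that from downstream peaks, −4.23, was −1.99. The DRE difference from downstream peaks, 2.64, was 1.42 with the most 5′ TSS alone. The motif 1 difference from downstream peaks, 1.60 points, turned to −1.02 with the most 5′ TSS alone and to −0.0814 with windows of 50 bp, and the cause was not tested. With the pooled series list, 60.8% of peaks were listed in all 3 replicates, 24.6% of one-strand genes had a peak and 6.93% of peaks faced a non-coding TSS. At an IDR of 0.001 listing was 90.8%, the signal percentile 58.9 and the gene share 15.8%. With a limit of 250 bp the median distance was 96 bp, listing 75.7%, the percentile 65.1, DRE 12.5%, motif 1 7.64% and the non-coding share 3.47%. With 1000 bp they were 197 bp, 70.5%, 60.4, 6.94% for DRE and 11.8% for the non-coding share. The most 5′ TSS alone gave 122 bp, DRE in 11.2% and a non-coding share of 8.01%, which was 0% by construction with TSSs of all gene types. Windows of 50 bp gave DRE 5.32% and motif 1 2.66%, and windows of 150 bp gave 10.3% and 7.82%. Listing by a summit within 100 bp was 67.1%. Lists whose intervals matched replicates 2 and 3, or 1 and 3, gave listing of 71.9% to 74.9% and percentiles of 58.96 to 62.1. The intervals behind the series list matched replicates 1 and 2. Whether replicate 3 enters its summits and signal values is not stated. At mRpL41 the series signal was 9842, against 2637, 3762 and 3533 in replicates 1, 2 and 3. At Sox14 it was 9134, against 2642, 3274 and 3251. Series signals are therefore not treated as independent of any replicate, replicate 3 included.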
